A study of Mus musculus with 8 samples.

Results

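The circadian clock genes were described in mouse gastrocnemius, a calf muscle, as 10 listed genes of the core clock and its outputs, namely Arntl, Clock, Per1, Per2, Per3, Cry1, Cry2, Nr1d1, Nr1d2 and Dbp. They were chosen by name, and all 10 were found among the 21207 gene symbols shared by the 8 libraries. Single nuclei of wild-type C57BL/6 muscle that had been frozen in liquid nitrogen were sequenced in 4 groups of 2 libraries each. Young mice were 3 months old and Old mice, called aging in the labels, 20 months old. Running mice started treadmill exercise at 11 months of age and ran for 2 months at 9 m/min in 30 min sessions, with 2 to 3 days of rest between sessions, and Sedentary mice were their controls. In each group replicate 1 was a 10x Genomics library and replicate 2 came from another droplet system, called the second set here. The number of mice per library, the hour of dissection and the light cycle are not given in the sources used here, and p-values measure only the spread between these libraries.

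The clock is a feedback loop that runs in nearly every cell. ARNTL (also called BMAL1) and CLOCK form the positive arm, a pair of transcription factors that binds E-boxes and activates the Per, Cry, Nr1d and Dbp genes. PER and CRY proteins then repress that pair, while the nuclear receptors NR1D1 and NR1D2 (REV-ERB alpha and beta) repress Arntl and ROR receptors activate it. Over the day the RNAs of the 2 arms peak at different hours. In skeletal muscle the loop is known for driving daily rhythms of fuel use.

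E-boxes, the letters through which the positive arm acts, are shown here in the Per1 and Cry1 promoters, and D-boxes, through which DBP acts, in the Per3 promoter, because these genes are the repressors described in the results. Each run is the 250 bases before a RefSeq start on GRCm38.p6, written 5′ to 3′ along the gene. Capitals mark CACGTG (E-box), CACGTT (a variant E-box), TTATGTAA or TTACGTAA (D-box) and AGGTCA (the half-site of ROR and NR1D receptors), each on either strand.
Per1 chr11:69098699-69098948 (+): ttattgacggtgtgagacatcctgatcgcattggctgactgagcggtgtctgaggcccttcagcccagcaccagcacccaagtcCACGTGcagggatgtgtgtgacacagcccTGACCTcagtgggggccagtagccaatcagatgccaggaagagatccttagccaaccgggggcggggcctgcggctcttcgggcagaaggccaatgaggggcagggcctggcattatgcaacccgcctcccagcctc
Cry1 chr10:85185055-85185304 (-): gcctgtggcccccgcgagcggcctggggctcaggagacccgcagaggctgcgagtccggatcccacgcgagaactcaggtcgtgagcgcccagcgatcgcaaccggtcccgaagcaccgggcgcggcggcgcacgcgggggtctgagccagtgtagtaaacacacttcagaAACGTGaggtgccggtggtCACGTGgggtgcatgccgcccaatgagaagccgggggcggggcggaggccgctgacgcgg
Per3 chr4:151044666-151044915 (-): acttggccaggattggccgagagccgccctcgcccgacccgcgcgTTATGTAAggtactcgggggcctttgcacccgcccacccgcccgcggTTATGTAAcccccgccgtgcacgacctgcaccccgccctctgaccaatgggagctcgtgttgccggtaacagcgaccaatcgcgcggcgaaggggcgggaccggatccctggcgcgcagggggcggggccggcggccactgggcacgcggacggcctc
RefSeq lists 2 starts of Per1 in the table, both inside the annotated gene, and the first of them is shown. CACGTG lies 166 bases before that start and 60 bases before the start of Cry1. It was found in 2 of the 9 members with a promoter in the table and in 6.02% of all 32851 promoters. TTATGTAA occurs in the Per3 promoter at 205 and 158 bases before the start, and a D-box of either spelling was found in 0.931% of all promoters. CACGTT was found in the windows of Cry1, Cry2 and Nr1d1 and in 3.85% of all promoters. AGGTCA was found in the windows of Clock, Per1 and Nr1d2 and in 14.0% of all promoters. Such a match is a description of letters and not of a bound site.

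On GRCm38, Arntl is annotated at chr7:113207465-113314126 (+), Clock at chr5:76209868-76304792 (-), Per1 at chr11:69095217-69109960 (+) and Per2 at chr1:91415982-91459324 (-). Per3 lies at chr4:151003652-151044665 (-), and its whole 41014 bases are also covered by Camta1 on the same strand, so UMIs of these genes could have been split or lost in counting. Cry1 lies at chr10:85131700-85185064 (-), Cry2 at chr2:92403646-92434043 (-) and Dbp at chr7:45705088-45710203 (+). Nr1d1 lies at chr11:98767932-98775333 (-) and shares 1075 bases with Thra on the opposite strand, and Nr1d2 lies at chr14:18204054-18239127 (-).

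The 8 libraries held 64803 retained nuclei and between 4765224 and 44389777 unique molecular identifiers (UMIs, tags that count each captured RNA molecule once). Levels below are UMIs of a gene per 1000000 UMIs of a library after TMM scaling (CPM), those of classes are unscaled CPM of the UMIs of the class, and differences are on the log2 scale. Myh4, the myosin of type IIb fibres, was present in every library at 1956 to 13000 CPM, here without TMM scaling. The 10x libraries shared 30 to 46 cell barcodes in each pair. Old replicate 2 stood apart, with 87.8% of its nuclei in clusters that could not be named, against 2.04% to 53.8% in the other libraries, and a scaling factor of 1.48, against 0.878 to 1.02. The Y-linked gene Ddx3y gave at most 0.335 CPM in 10x libraries, where those of the second set had 34.8 to 76.4, while Xist was present in all 8 libraries, and the part of this difference between sets in the results was not tested.

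No member passed the test in either comparison of whole libraries. With edgeR's quasi-likelihood test on all 8 libraries, 0 of 10 members and 0% of 20313 genes had an adjusted p-value under 0.05 in Old against Young, where 2.74% of genes had an unadjusted p-value under that limit. In Running against Sedentary, 0 of 10 members and 0% of genes were called, with 0.482% of genes under the limit before adjustment. DESeq2 called 0 genes in both comparisons, with 1170 and 392 genes under the limit before adjustment. None of the members was under the limit before adjustment by either tool in these fits of 8 libraries. With only the 4 compared libraries, still paired by set, Arntl (1.01, unadjusted p = 0.00319, adjusted p = 0.283), Per2 (-0.92, unadjusted p = 0.00667, adjusted p = 0.439) and Nr1d1 (0.99, unadjusted p = 0.00848, adjusted p = 0.484) were under it in Running against Sedentary, and Dbp (-1.08, unadjusted p = 0.0390, adjusted p = 0.754) in Old against Young. The differences below did not exceed the spread between libraries by this test.

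Arntl, the core activator, differed between the 10x libraries by up to 3.70-fold. Its level was 128.6 CPM in Running (5272 UMIs), 73.0 in Young (2526 UMIs), 44.3 in Sedentary (1007 UMIs) and 34.8 in Old (1376 UMIs). In the second set it was 31.5 CPM in Sedentary, 38.2 in Running, 38.7 in Young and 39.0 in Old. Running was thus the highest 10x library by a wide margin, while the second set spanned only 1.24-fold. The fitted difference between Running and Sedentary was 0.99 ± 0.49 (SE, 2 libraries per group, adjusted p = 1.0), made of 1.53 for the 10x libraries and 0.28 for the second set. It came to 0.22 without Running replicate 1 and to 1.58 without Running replicate 2. Between Old and Young it was -0.47 ± 0.49 (adjusted p = 0.704), with -1.06 for the 10x libraries and 0.01 for the second set.

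Clock, the partner of Arntl, was at 141 CPM in Running, 95.1 in Young, 80.6 in Old and 73.1 in Sedentary in the 10x set. Its second-set level was 107 CPM in Young, 85.1 in Sedentary, 82.2 in Old and 72.1 in Running. Running was the highest of the 10x libraries and the lowest of the second set. The fitted differences were 0.41 ± 0.41 for Running against Sedentary and -0.32 ± 0.40 for Old against Young. After TMM scaling Clock was lower in Old in both sets.

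**Figure D1:**
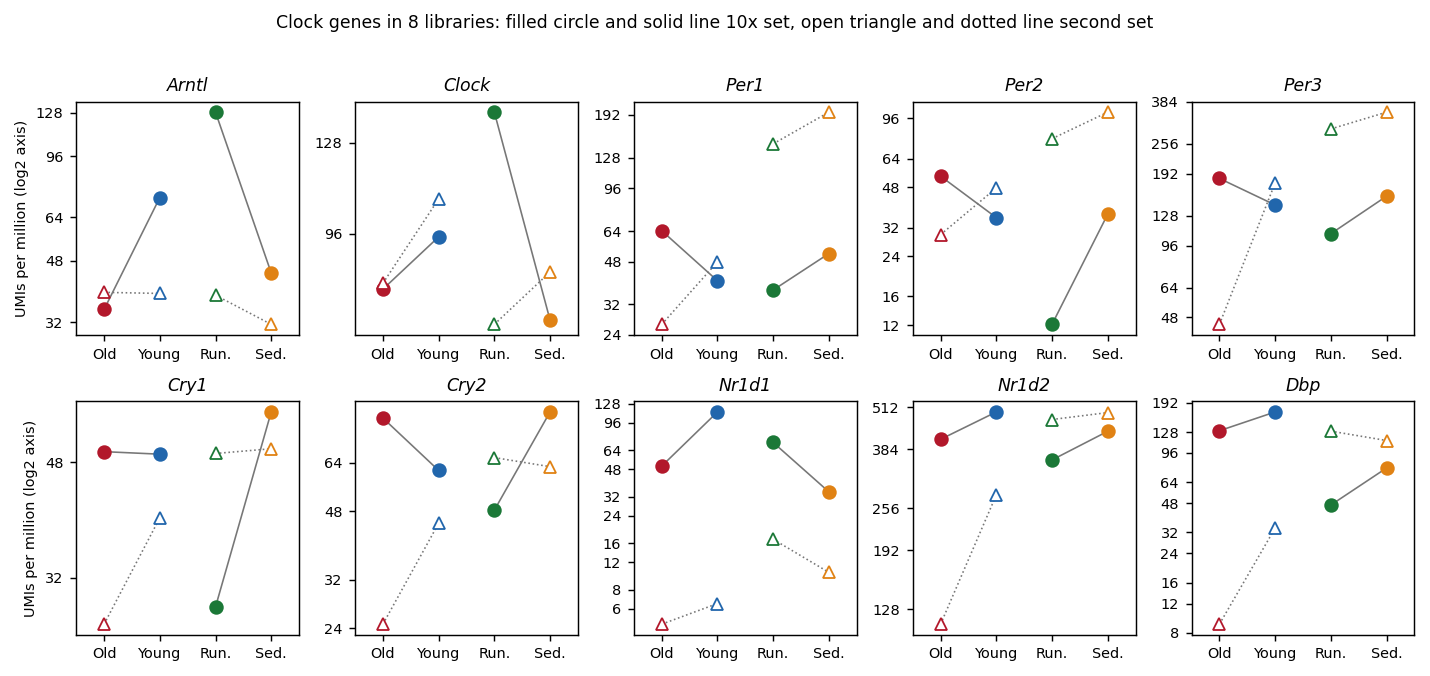
Level of each clock gene (CPM after TMM scaling, log2 axis) in the Old, Young, Running and Sedentary libraries, with a line joining the 2 groups of a comparison within a library set. Arntl is highest in the 10x Running library at 128.6, where Per2 is lowest at 12.1, and Dbp is lowest in Old of the second set at 9.02.

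The Per genes encode the repressors that bind CRY proteins. Per2 showed the widest range of them in the 10x set, 4.43-fold, with 53.6 CPM in Old (2120 UMIs), 36.6 in Sedentary (831 UMIs), 35.4 in Young (1223 UMIs) and 12.1 in Running (496 UMIs). Among second-set libraries Per2 was at 102 CPM in Sedentary, 78.1 in Running, 47.6 in Young and 29.8 in Old. Running was below Sedentary in both sets, by 1.56 and 0.38 on the log2 scale, and the fit gave -0.77 ± 0.73 (SE, 2 libraries per group, adjusted p = 1.0). Old lay above Young in the 10x set by 0.59 and below it in the second set (-0.67), and the fit gave 0.20 ± 0.73.

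Per1, which is also induced acutely by glucocorticoids, followed the same order in the 10x set, with 64.2 CPM in Old, 51.8 in Sedentary, 40.0 in Young and 36.7 in Running. Its second-set levels were 196.6 CPM in Sedentary, 145.8 in Running, 47.9 in Young and 26.5 in Old, a 7.41-fold range. Per3 was ordered likewise in both sets, from 183.5 in Old to 108 in Running, in CPM, in the 10x set and from 348 in Sedentary through 296 in Running and 176 in Young to 44.8 in Old in the second set. All 3 Per genes were therefore lower in Running than in Sedentary in each set. In Old against Young all 3 were higher in the 10x set, by 0.67, 0.59 and 0.37, and lower in the second set (-0.84, -0.67 and -1.96).

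The second-set libraries with high Per1 were also set beside genes that respond to glucocorticoids and to acute stimulation. The summed level of 7 glucocorticoid-responsive genes was 1569 CPM in Sedentary, 1531 in Young, 1367 in Running and 910 in Old in that set, where it did not follow the Per1 order. The summed level of 8 immediate early genes was 731 CPM in Running, 488 in Sedentary, 288 in Young and 188 in Old, so the 2 libraries with high Per1 were also the 2 highest here. Nr4a1, an immediate early gene and nuclear receptor, made up most of that sum with 634 CPM in Running and 413 in Sedentary. Its part in the Per1 levels was not tested.

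The Cry genes encode the partners of PER. Cry1 was at 57.3 CPM in Sedentary, 49.8 in Old, 49.4 in Young and 28.9 in Running in the 10x set. Its second-set level was 50.3 CPM in Sedentary, 49.5 in Running, 39.5 in Young and 27.2 in Old. Cry2 was at 86.5, 83.4, 61.2 and 48.3 CPM in Sedentary, Old, Young and Running of the 10x set. Both were lowest in the 10x Running library, and the Running libraries of the second set were within 0.08 of Sedentary on the log2 scale for both. D930015M05Rik, an RNA annotated antisense to Cry2 over 23417 bases, was higher in Old in both sets (1.33 and 1.43, unadjusted p = 0.0299, adjusted p = 0.693). It reached 14.7 CPM in Old and 5.58 in Young with 10x libraries, and 3.96 and 1.16 (29 and 10 UMIs) with the second set, and whether counting used strand is not given in the sources used here.

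Nr1d1, a repressor of Arntl, differed in the direction of Arntl in the 10x set and not in that of the Per genes. In the 10x set it was at 113 CPM in Young, 71.8 in Running, 50.5 in Old and 34.4 in Sedentary. It was rare in the second set, with 17.0 CPM in Running (113 UMIs), 10.4 in Sedentary (44 UMIs), 6.51 in Young (56 UMIs) and 4.78 in Old (35 UMIs). Its mean log2 level was 2.76 lower in the second set, the widest gap between sets of any member. Within each set, after TMM scaling, Nr1d1 was higher in Running than in Sedentary (1.05 and 0.69, fit 0.87 ± 0.61) and lower in Old than in Young (-1.16 and -0.41, fit -0.91 ± 0.60), and neither passed the test (adjusted p = 1.0 and 0.693). The Running value came to 0.23 without Sedentary replicate 1, 0.27 without Running replicate 2 and 1.72 without Sedentary replicate 2. Thra, which overlaps its 3′ end, differed by 0.65 and 0.25 between Running and Sedentary, in the same direction.

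Nr1d2, the other receptor of this kind, was lower in Running and lower in Old in both sets. Its levels in the 10x set were 495 CPM in Young, 434 in Sedentary, 410.5 in Old and 356 in Running, the narrowest range of any member there (1.39-fold). They were 493 CPM in Sedentary, 470 in Running, 280 in Young and 116 in Old of the second set. Dbp, an output gene whose protein acts on D-boxes, was at 169 CPM in Young, 130.5 in Old, 78.0 in Sedentary and 46.8 in Running in the 10x set. In the second set Dbp had the widest range of all members, 14.4-fold, from 130 CPM in Running and 114 in Sedentary to 34.0 in Young and 9.02 in Old. Old was below Young in both sets (-0.37 and -1.86, fit -0.66 ± 1.08), while Running against Sedentary split into -0.73 and 0.19.

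**Figure D2:**
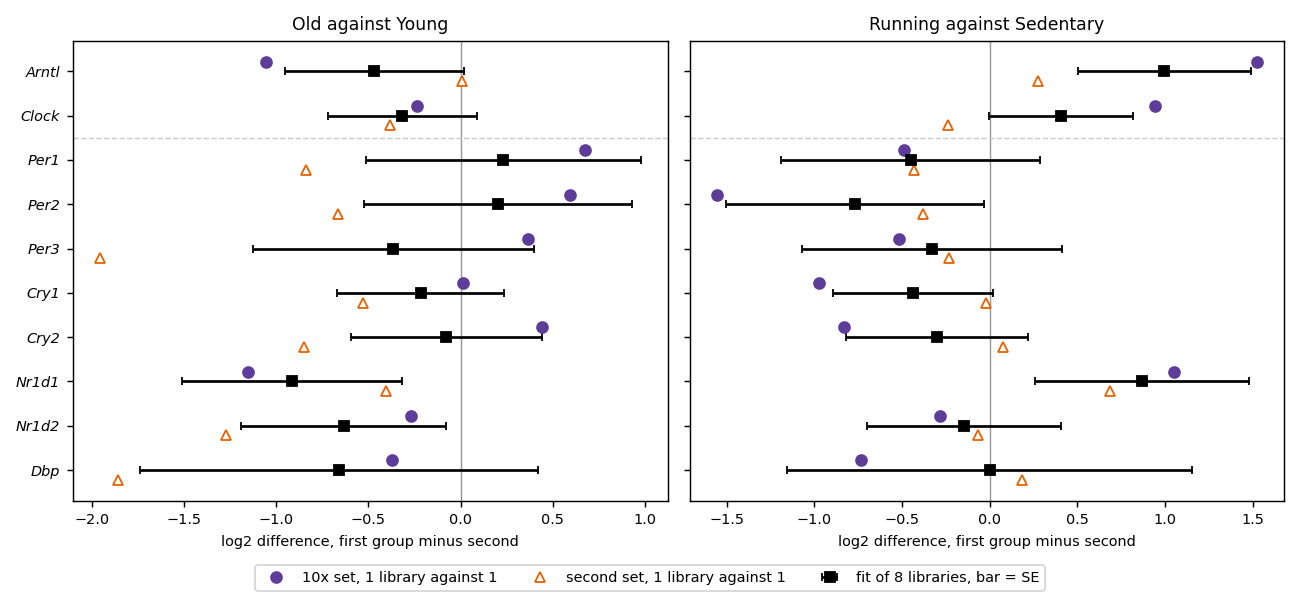
Log2 difference of each clock gene in Old against Young (left) and Running against Sedentary (right), as the fit of all 8 libraries with its SE and as the difference within each library set, with the positive arm above the dashed line. In Running against Sedentary the 10x values run from 1.53 for Arntl to -1.56 for Per2, and in Old against Young the second-set values reach -1.96 for Per3.

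The 2 arms were then compared, since the clock genes were listed to see whether the arms differ in opposite directions. In the 10x set, Running against Sedentary gave a mean of 1.23 for Arntl and Clock and of -0.54 for the other 8 genes, an arm difference (negative minus positive) of -1.78. Of those 8 genes, 7 were lower in Running and Nr1d1 was the exception. For the second set the 2 means were 0.02 and -0.02, an arm difference of -0.04. In the fit it was -0.90, and it came to -1.51 when the 3 Per genes alone were set against Arntl (-2.38 and -0.62 in the 2 sets). Without Running replicate 1 the arm difference of the fit turned to 0.42, and without Running replicate 2 it was -2.54. No test was made over the list, since its members were chosen with results known.

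Old against Young gave arm differences of opposite sign in the 2 sets. In the 10x set Arntl and Clock averaged -0.65 and the other 8 genes 0.04, a difference of 0.68, with the 3 Per and 2 Cry genes higher in Old and Nr1d1, Nr1d2 and Dbp lower. For the second set the means were -0.19 and -1.05, a difference of -0.86, and 9 of 10 members were lower in Old, all but Arntl. That count depends on the TMM factors, 1.48 in Old and 0.968 in Young of this set, which lower all levels in Old alike. The second-set value rests on Old replicate 2, the library that stood apart. The fit gave 0.088, which moved to 1.21 without that library and to -1.63 without Old replicate 1. The median of the members in the fit was -0.34, against 0.19 for all genes tested.

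Counted by direction, 2 members (Arntl and Nr1d1) were higher and 5 (Cry1, Nr1d2, Per1, Per2 and Per3) lower in Running in both sets, where 26.5% and 24.2% of all genes were. In Old against Young no member was higher and 4 (Clock, Dbp, Nr1d1 and Nr1d2) were lower in both sets, where 34.0% and 26.6% of all genes were. In the second set the signs of Clock and Nr1d1 depended on TMM scaling. Clock had 601 of 4946600 UMIs in Old and 923 of 8897300 in Young, and Nr1d1 had 35 and 56. As plain shares of UMIs neither was lower in Old of that set. The median of the members in Running against Sedentary was -0.22 in the fit, against -0.04 for all genes.

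The Per2 share of the UMIs of Per2 and Arntl together gave a measure of the 2 arms that needs no scaling between libraries. In the 10x set it was 8.60% in Running (95% exact binomial interval 7.89 to 9.35), 32.6% in Young (31.1 to 34.1), 45.2% in Sedentary (42.9 to 47.5) and 60.6% in Old (59.0 to 62.3). In the second set it was 43.3% in Old (39.0 to 47.8), 55.2% in Young (51.5 to 58.8), 67.1% in Running (63.7 to 70.4) and 76.4% in Sedentary (72.7 to 79.8). Running was below Sedentary in both sets with intervals apart, whereas Old was above Young for the 10x libraries and below it for the second set. The intervals cover counting error only and not the spread between mice.

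Classes of nuclei were compared to see whether the 10x difference was found in all parts of the muscle. Running was above Sedentary for Arntl in 10 of the 10 classes with at least 20 nuclei in both 10x libraries, by 0.90 in muscle stem cell-like to 3.34 in macrophage-like nuclei. Per2 was lower in all 10 classes, from -2.52 in type IIb-like to -0.067 in myotendinous junction-like nuclei, the last on 24 and 6 UMIs. Per3, Cry1, Cry2, Nr1d2 and Dbp were lower in all 10 classes as well, and Per1 in 9. Some of these differences were near 0, the weakest being -0.02 for Cry2, -0.049 for Cry1 and -0.11 for Nr1d2. For Per3 and Dbp the weakest were -0.215 and -0.42. The share of all genes that were lower in all 10 classes was not counted. Clock was higher in 9 classes, and Nr1d1 in 8, being lower in fibro-adipogenic progenitor-like and pericyte-like nuclei. These classes come from the same 2 libraries and are not replicates of each other.

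For type IIb-like nuclei, the fast glycolytic fibres, the 10x levels of Arntl were 129.9 CPM of the class in Running, 86.5 in Young, 50.9 in Sedentary and 47.3 in Old. Per2 ran the other way, with 5.50 in Running (125 UMIs), 22.8 in Young, 33.9 in Sedentary and 49.1 in Old. The Per2 share there was 4.06% in Running (95% exact interval 3.39 to 4.82) and 40.0% in Sedentary (36.4 to 43.7). This class joined 5 clusters that the libraries filled unevenly. Cluster 6 held 49.7% of the type IIb-like nuclei in Old and 1.10% in Young, cluster 0 held 19.2% and 52.1%, and cluster 3 held 22.3% in Running and 50.5% in Sedentary. Within each of the 4 clusters with at least 20 nuclei in both libraries, Arntl was higher in Running (0.99 to 1.60) and Per2 lower (-3.15 to -2.16). Within the same 4 clusters Arntl was lower in Old than in Young (-1.06 to -0.20) and Per2 higher (0.84 to 1.37).

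Macrophage-like nuclei had Arntl at 184 in Running (137 UMIs) and 17.7 in Sedentary (4 UMIs). Endothelial-like nuclei had a Per2 share of 15.8% in Running (7.48 to 27.9) and 67.6% in Sedentary (50.2 to 82.0). Across the 10 classes the share was lower in Running in all 10, with intervals apart in 8. Of 6 classes in the second set, 5 had a lower share in Running and 0 had intervals apart.

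**Figure D3:**
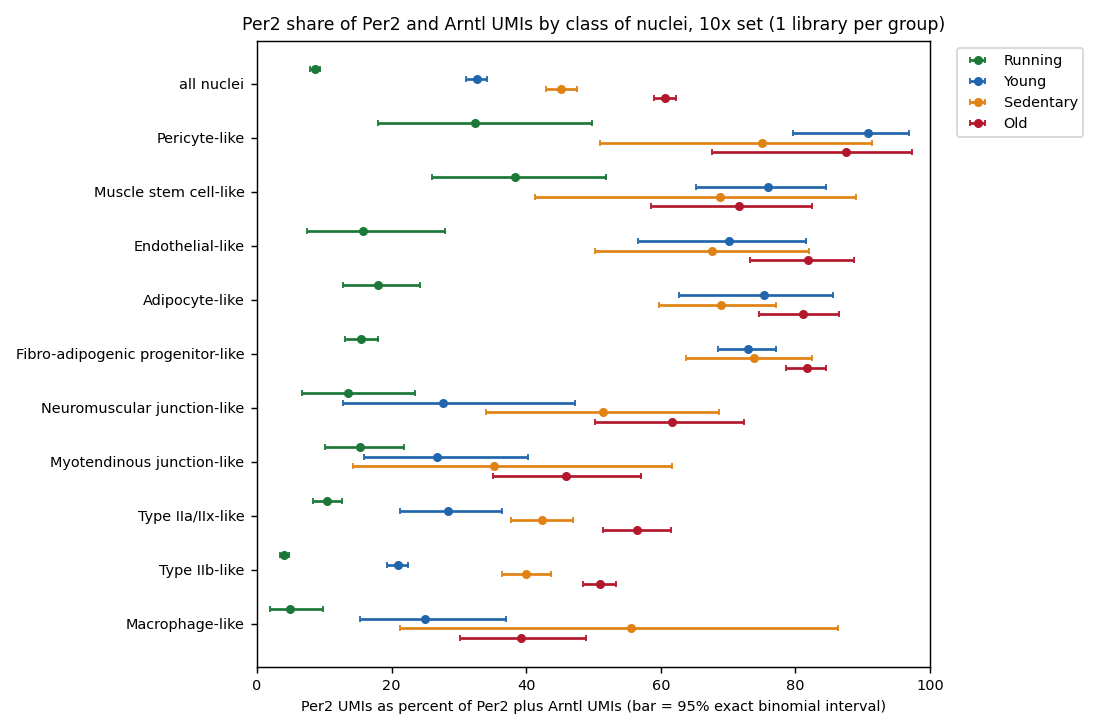
Per2 UMIs as a percent of Per2 plus Arntl UMIs in all nuclei and in 10 classes of nuclei of the 10x libraries, with 95% exact binomial intervals. The Running library lies lowest in every class, from 4.06% in type IIb-like to 38.3% in muscle stem cell-like nuclei.

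In Old against Young of the 10x set, 14 classes had enough nuclei. Per1, Per2 and Per3 were each higher in Old in 12 of 14 classes, and Cry2 in 13. Arntl was lower in 10, Nr1d1 in 11, Clock in 9 and Dbp in 8, and Cry1 was higher in 8. Nr1d2 was higher in Old in 10 of the 14 classes, with a median of 0.16. Its whole-library difference of -0.27 in the 10x set is not on the same scale. That value was TMM-scaled, with factors of 1.02 in Old and 0.878 in Young, and class values were not. The classes also made up unlike shares of the 2 libraries, with 34.5% type IIb-like nuclei in Old and 56.5% in Young. The part of the scale and of the class mix in the opposite signs was not tested. The Per2 share was higher in Old in 12 of the 14 classes, with intervals apart in 4. In pericyte-like and muscle stem cell-like nuclei it was lower in Old than in Young.

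**Figure D4:**
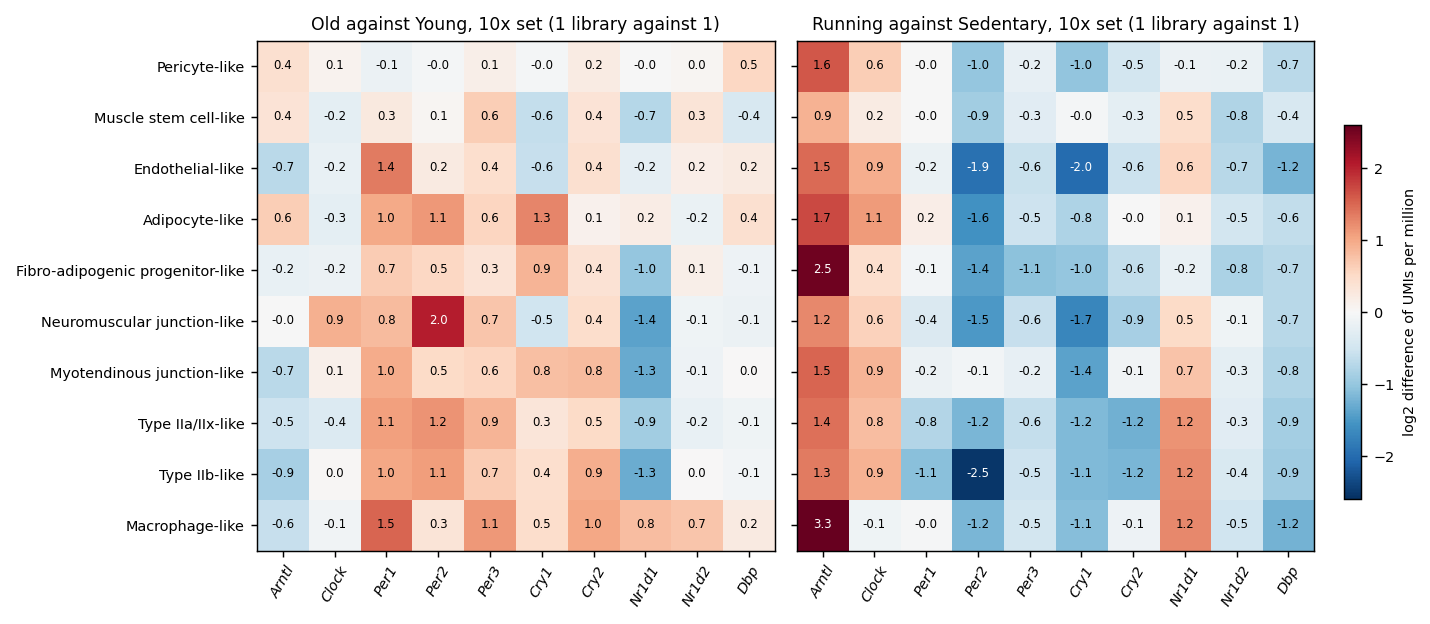
Log2 difference of each clock gene (CPM of the class) between the 2 10x libraries of each comparison in 10 classes of nuclei, printed in each cell. The Arntl column is positive in all 10 classes in Running against Sedentary, and the Per2, Per3, Cry1, Cry2, Nr1d2 and Dbp columns are negative.

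Summed per class and fitted over both sets, 0 of 10 members were called in any of the 9 comparisons within a class. For type IIb-like nuclei, where 0.758% and 0.179% of 15047 genes were called in Old against Young and Running against Sedentary, the nearest were Per2 in Running (-1.22 ± 0.40, SE of the edgeR fit, unadjusted p = 0.00287, adjusted p = 0.408) and Nr1d1 in Old (-1.40 ± 0.49, unadjusted p = 0.00458, adjusted p = 0.210). Nr1d1 in Running against Sedentary gave 1.10 ± 0.40 (edgeR, adjusted p = 0.604) and Arntl 0.90 ± 0.37 (adjusted p = 0.944). Old replicate 2 gave 35 nuclei and Young replicate 2 262 nuclei to this class, and Nr1d1 had 0 UMIs in the former. With type IIa/IIx-like nuclei (0.00768% of 13023 genes called in Old against Young and 0% in Running against Sedentary), Arntl differed by 1.10 ± 0.46 in Running (adjusted p = 1.0). Per2 differed by 1.79 ± 0.73 in Old (adjusted p = 0.649) in neuromuscular junction-like nuclei, where 0.0397% and 0.139% of genes were called. It had 50 UMIs there in Old and 8 in Young of the 10x set. In the second set it had 1 and 3 UMIs and was lower in Old. Arntl differed by 1.27 ± 0.60 in Running (adjusted p = 1.0) in myotendinous junction-like nuclei, where 0% were called in both comparisons.

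Fibro-adipogenic progenitor-like nuclei, the connective tissue precursors, had the widest Arntl difference of these class fits. Among the 10x libraries Arntl was at 119 CPM of the class in Running (709 UMIs), 20.3 in Sedentary (24 UMIs), 17.2 in Young (115 UMIs) and 15.0 in Old (123 UMIs). The Running library was far above the other 3, whose exact Poisson intervals overlapped. The second set added 5 and 2 UMIs in Running and Sedentary. The fit over 7 libraries, without Old replicate 2, which had 18 such nuclei, gave 2.20 ± 0.58 (edgeR, unadjusted p = 0.000164, adjusted p = 0.0832, with 0.146% of 13704 genes called). It passed the threshold with only the 4 compared libraries in the fit (2.29, adjusted p = 0.0421), where 11 of 9085 genes were called. It also passed with Young replicate 1 (2.26), Young replicate 2 (2.26) or Sedentary replicate 2 (2.44) left out. Those fits, and the fit of 4 libraries, had fewer residual degrees of freedom than the fit over 7 libraries. The fits that passed with a library left out had 1 library in a group besides Old, and other genes were called in them as well. Old had 1 library in the fit over 7 libraries, and no library in the fit without Old replicate 1. It did not pass without Running replicate 1 (0.90), Sedentary replicate 1 (0.64), Running replicate 2 (2.38) or Old replicate 1 (2.20, adjusted p = 0.921). Nor did it pass without the set term (1.96, adjusted p = 1.0) or at resolution 0.5 of the clustering (2.13, adjusted p = 0.287). Within the 3 clusters joined in this class the 10x difference of Arntl was 1.98 to 2.97. No other member passed in this class under these alternatives.

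Myh4, the fibre myosin, was measured in these nuclei to gauge free RNA. Its level in fibro-adipogenic progenitor-like nuclei was 13.5% to 25.3% of that in type IIb-like nuclei for the 10x libraries and 53.2% to 101% for the second set. The part of free RNA in the clock gene levels of these nuclei was not tested.

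Whether fold changes differed between myonuclei and other nuclei was tested with the library as a block. No member was called (0.335% and 0.122% of 18784 genes were, in Old against Young and Running against Sedentary). The nearest was Arntl in Old against Young, with a difference of -1.53 ± 0.53 (edgeR, unadjusted p = 0.00406, adjusted p = 0.283). It came to -2.91 without Old replicate 1 (adjusted p = 0.0952), -2.31 without Young replicate 1 (adjusted p = 0.995) and -1.07 without Old replicate 2 (adjusted p = 1.0). Among myonuclei Arntl differed by -1.14 between Old and Young with 10x libraries and by 0.025 with the second set. Among the other nuclei it differed by -0.14 and 2.94, the last on 15 and 1 UMIs, 14 of them in adipocyte-like nuclei of Old replicate 2.

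The level of each member by class was ordered by its mean log2 value within the 10x set, where 10 classes had at least 20 nuclei in all 4 libraries. Per2 had the widest range, 4.01-fold, from 79.1 ± 31.1 CPM (SD, n = 4 libraries) in pericyte-like to 19.7 ± 7.27 in macrophage-like nuclei. Pericyte-like nuclei exceeded the next class for Per2, muscle stem cell-like nuclei, in 4 of 4 libraries. Type IIb-like and type IIa/IIx-like nuclei, at 27.8 ± 18.4 and 26.5 ± 13.9, were next to the lowest for Per2 and were not apart from each other. Cry1 ranged 3.87-fold, from 58.4 ± 19.9 in type IIb-like to 15.1 ± 7.26 in adipocyte-like nuclei. Macrophage-like nuclei, next above the adipocyte-like in that order, exceeded them in all 4 libraries, and no other neighbours in the Cry1 order were apart in all 4.

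Arntl, in contrast, was among its highest in myonuclei, with 78.7 ± 38.5 in type IIb-like and 77.2 ± 33.5 in myotendinous junction-like nuclei, and came last in pericyte-like nuclei at 31.7 ± 30.7. Type IIa/IIx-like nuclei (58.0 ± 34.0) exceeded endothelial-like nuclei (38.4 ± 26.1), the next class, in all 4 libraries. Clock was arranged otherwise, highest in macrophage-like nuclei (161 ± 17.4) and lowest in the 4 myonuclear classes, from 88.4 ± 41.2 to 70.5 ± 25.9. Macrophage-like nuclei were the lowest class for Per2, Per3, Cry2, Nr1d1 and Nr1d2. Nr1d2 was highest in type IIb-like nuclei (459 ± 59.3), Nr1d1 in fibro-adipogenic progenitor-like nuclei (89.7 ± 47.2) and Per1 in muscle stem cell-like nuclei (64.5 ± 6.53). Cry2 (102 ± 7.99) and Per3 (188 ± 63.5) were highest in adipocyte-like nuclei, and those Cry2 levels exceeded the next class in all 4 libraries. Dbp was highest in type IIb-like nuclei (117 ± 56.0) and lowest in adipocyte-like nuclei (51.6 ± 26.5).

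**Figure D5:**
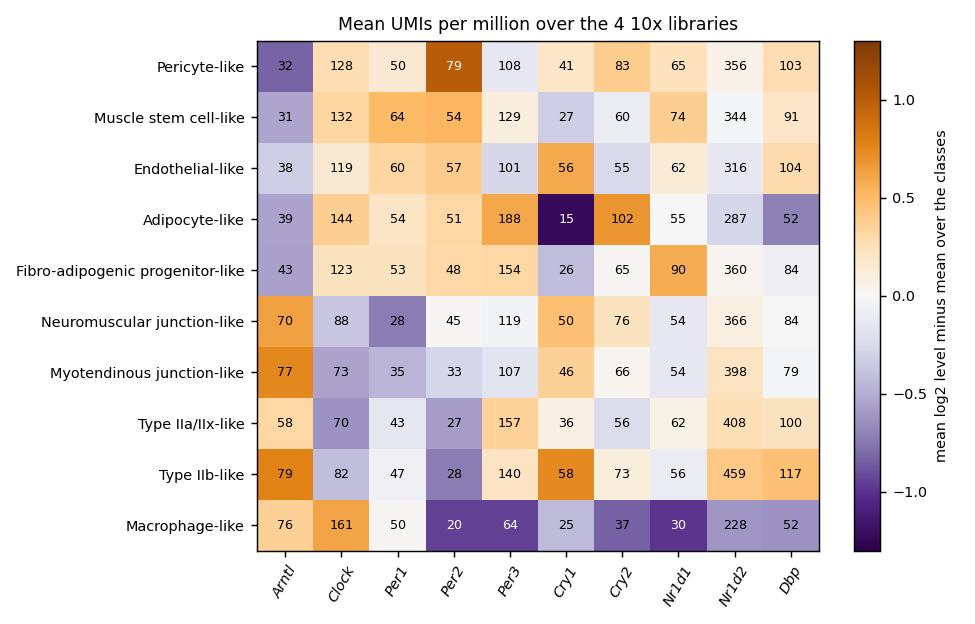
Mean level of each clock gene over the 4 10x libraries (CPM of the class, printed) in 10 classes of nuclei, with colour for the mean log2 level relative to the mean over the classes. Type IIb-like nuclei have Arntl at 78.7 and Per2 at 27.8, and pericyte-like nuclei have Arntl at 31.7 and Per2 at 79.1.

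Other genes of the clock loop were taken from a list of 15 genes, all of which were tested and none of which was called in either comparison. In Old against Young, 5 were higher and 10 lower in the fit, with a median of -0.34, and in Running against Sedentary 9 were higher and 6 lower, with a median of 0.16. Bhlhe41, a repressor that competes for E-boxes, was lower in Old in both sets (-0.92 and -2.32, unadjusted p = 0.0497, adjusted p = 0.693). Its levels were 68.1 CPM in Young and 35.9 in Old in the 10x set, and 28.7 and 5.33 in the second set. Nfil3, which opposes DBP at D-boxes, was at 19.4 CPM in Running, 17.1 in Young, 5.01 in Old and 3.57 in Sedentary in the 10x set, and between 7.79 and 9.06 in the second set. Its 10x levels thus divided the libraries in the way Arntl did.

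Npas2, a relative of Clock that also pairs with ARNTL, was at 42.1 CPM in Running, 16.7 in Sedentary, 10.6 in Old and 8.96 in Young in the 10x set. Its second-set level was 34.5 CPM in Old, 12.9 in Young, 6.11 in Sedentary and 4.35 in Running. Ciart, a repressor of the positive arm, was at 28.4 CPM in Sedentary, 23.0 in Old, 8.82 in Young and 4.22 in Running in the 10x set. Ciart was lower in Running in both sets (-2.61 and -0.54, fit -1.04 ± 1.17, adjusted p = 1.0). Tef and Hlf, relatives of Dbp, differed by -0.04 ± 0.50 and -0.32 ± 0.60 between Running and Sedentary and by -0.55 ± 0.50 and -0.24 ± 0.59 between Old and Young.

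Of 10 clock-controlled or rhythmic output genes, 0 were called. In the fit, 2 were higher and 8 lower in Old, with a median of -0.36, and 4 were higher and 6 lower in Running, with a median of -0.05. None met the rule for being named. The immediate early genes had medians of 0.35 in Old and 0.50 in Running, and the glucocorticoid-responsive genes, Per1 among them, of -0.07 and -0.06, with 0 of 8 called in each list and comparison.

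The genes whose levels over the 8 libraries were most like those of Dbp and Arntl were listed by Pearson r after centring within each set, as a description over 8 libraries that share depth and set, among 7316 genes with a mean log2 level of at least 4. Closest to Dbp were Rnf138 (r = 0.99), Nop58 (0.99), Alg6 (0.99), Cd55 (0.99) and Trp53 (0.98). Of the members, Nr1d2 (0.95) and Per3 (0.93) were closest to Dbp, Nr1d1 was at 0.70, and Clock (-0.34) and Arntl (-0.31) ran against it. For Nr1d2, 0.752% of genes had a higher r, whereas 49.6% did for Nr1d1. Npas2, whose mean log2 level lay below the limit of 4, had an r of -0.97 with Dbp.

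Closest to Arntl were Mdga1 (r = 0.98), Manbal (0.93), Gtf2ird1 (0.92), Xylt1 (0.92) and Me1 (0.91). Clock had an r of 0.81 with Arntl, above which 0.369% of genes lay, and Nfil3 of 0.87. Per2 was at -0.78, Cry1 at -0.68, Cry2 at -0.57, Per1 at -0.36, Per3 at -0.32 and Nr1d1 at 0.37. With Old replicate 2 left out, Dbp and Arntl kept 2 of these 10 closest genes, Rnf138 and Nop58, both for Dbp.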

How the data were processed

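UMI counts for every gene in every nucleus, 1 filtered matrix per library, were deposited by the authors. The submitters' processing notes name mm10, Cell Ranger 6.1.2 and Seurat 4.1.1, and the study's methods name the DNBelab C system and PISA for libraries not made on 10x. Intron and strand settings are not given in the sources used here. The study's limits on nuclei (over 200 and under 6000 genes, less than 6% mitochondrial) kept 64803 of 65280. Mitochondrial and ribosomal protein symbols (106) were left out. Doublets stayed in. Retained depth was 4765224 to 44389777 UMIs per library.

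Each set was clustered apart (scanpy 1.11.5, leidenalg 0.10.2, 2000 variable genes without the clock genes and the lists of other loop and output genes, 30 principal components, 20 neighbours, resolution 1.0). Clusters were named from 19 marker lists (at least 3 markers detected at 5 CPM, lead of 0.8 on the log2 scale over the next list), with limits set after the clusters had been seen, so names mean likeness only and may differ from the study's. The neighbour search is approximate, and compiling it for another processor moved some nuclei between clusters, so class values and adjusted p-values near the threshold hold for 1 fixed setting of it. Where a class joined several 10x clusters, levels within each cluster were added after the data had been seen. Counts were summed per library, or per library and class with at least 20 nuclei. They were tested with edgeR 4.0.16 (quasi-likelihood F-test, TMM, filterByExpr, Benjamini-Hochberg over all genes, threshold 0.05) with group and library set as terms. That left 3 residual degrees of freedom in the fits of all 8 libraries and fewer in fits of fewer libraries. Differences within a set are 1 library against 1 (offset 0.5 CPM) and carry no test. With 2 libraries against 2, the smallest two-sided p-value of an exact permutation test that ignores the library set is 0.333. A permutation within sets has fewer arrangements, so its smallest p-value is larger. Scripts were tested on counts simulated with the depths, mean levels and common spread of these libraries, with 200 genes changed in Old. The Old against Young fit called 0% of genes changed by 1 on the log2 scale, 1% of those changed by 2 and 14% of those changed by 3. It made 0 false calls. The absence of a call is therefore no sign of equal levels.

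The members and lists were chosen with earlier results of these data known. Named genes were the 10 members, genes overlapping them, listed genes with an unadjusted p-value under 0.05 or a log2 difference over 1 in the same direction in both sets, Npas2, Tef, Hlf, Ciart, Bhlhe41 and Nfil3, genes of the glucocorticoid and immediate early lists beside Per1, and the 5 genes most like Dbp and like Arntl. Alternatives were DESeq2 1.42.0, RLE factors, all genes unfiltered, no set term, fewer libraries, other choices of nuclei, resolution 0.5, other arms and each library left out. Promoters are RefSeq's on GRCm38.p6 (Per2 had none in the table) and coordinates are those of GENCODE vM21.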

Additional observations from a re-analysis of the deposited data

How the results depend on the processing

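The labels carry no replicate numbers, but each library set holds 1 library of every group, so the set term pairs the groups, and the fits with only the 4 compared libraries are paired fits by set. In whole-library sums 0 of 10 members were called under every alternative run (RLE, DESeq2, no filter, no set term, 4 libraries, other choices of nuclei, each library left out). The number of all genes called went from 0 to 4 in Old against Young and to 81 in Running against Sedentary with only the 4 compared libraries. With 1 library left out it ranged from 0 to 8 (without Sedentary replicate 1) and from 0 to 418 (without Sedentary replicate 2). Within classes, 1 member was called in Running against Sedentary with only the 4 compared libraries, and 0 to 1 in each comparison with 1 library left out. Besides Arntl in fibro-adipogenic progenitor-like nuclei, these were Nr1d1 in type IIb-like nuclei in Old against Young without Young replicate 2 (-1.56) and Per2 there in Running against Sedentary without Running replicate 2 (-2.88). Each of these leave-one-out fits had 1 library in a group and called other genes as well, so such calls were not particular to the members. The arm difference ranged from -1.63 (without Old replicate 1) to 1.21 (without Old replicate 2) in Old against Young and from -2.54 (without Running replicate 2) to 0.42 (without Running replicate 1) in Running against Sedentary. Without Old replicate 2, 2 of the 10 genes most like Dbp and Arntl were shared. The causes were not tested.

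Some directions of single members, none of them called, turned. In Old against Young, Clock came to 0.027 with named nuclei only, Per1 to -0.035 with only the 4 compared libraries and Cry2 to 0.031 without the set term. In Running against Sedentary, Dbp came to 0.022 with RLE, 0.022 with DESeq2, 0.0058 without the filter and 0.017 without the 6% of nuclei with most genes. With 1 library left out, log2 differences in whole-library sums that turned ranged as follows in Old against Young: Arntl -1.16 to 0.0302, Per1 -1.59 to 1.12, Per2 -1.38 to 1.02, Per3 -2.40 to 0.64, Cry1 -0.81 to 0.18, Cry2 -1.07 to 0.56, Nr1d1 -1.57 to 0.15, Nr1d2 -1.75 to 0.031 and Dbp -3.54 to 0.76. In Running against Sedentary they were Clock -0.22 to 0.91, Per1 -1.52 to 0.59, Per2 -2.26 to 0.054, Per3 -1.31 to 0.43, Cry1 -1.12 to 0.087, Cry2 -1.06 to 0.25, Nr1d2 -0.87 to 0.43 and Dbp -2.45 to 1.63. In classes, the ranges were -0.69 to 2.34 for Per2 in neuromuscular junction-like and -1.06 to 2.06 for Per1 in type IIb-like nuclei in Old against Young, and -1.65 to 0.16 for Per2 in fibro-adipogenic progenitor-like nuclei in Running against Sedentary. The difference between myonuclei and other nuclei for Arntl ranged from -2.91 to -1.07 in Old against Young and from -0.93 to 0.31 in Running against Sedentary. Members that did not turn ranged from 0.22 to 1.58 (Arntl) and 0.23 to 1.72 (Nr1d1) in Running against Sedentary and from -0.54 to -0.12 (Clock) in Old against Young. Few UMIs limited the second set within classes, as with 35 type IIb-like nuclei in Old replicate 2.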
